A study of Mus musculus with 95 samples.

Results

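The list described here holds 150 of the 20175 probes of a mouse whole transcriptome panel, selected on one measured quantity: their counts were higher under the CD3 (T cell) mask than under the pan-cytokeratin (epithelial) mask in both zones of control thymus. The study set thymoma tissue from a Gtf2i L424H knock-in mouse against control thymus with the GeoMx Digital Spatial Profiler, which releases probe tags by light from masked parts of a tissue section. From 8 mice it collected 95 segments, each masked by 1 stain: pan-cytokeratin, CD3 or B220. The thymoma mice 1042, 1044, 1082 and 1157 were Gtf2ifl/wt Foxn1-Cre/wt, a genotype in which Cre is driven from the locus of Foxn1, a transcription factor of thymic epithelium. Control mice 1057 and 1059 were Gtf2ifl/fl and control mice 1172 and 1143 were Gtf2ifl/wt, so every mouse carried at least 1 Gtf2ifl allele and the controls carried no Cre in their labels. Ages are not given in the sources used here.

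Thymoma gave 12 T cell, 13 epithelial and 12 B cell segments from 4 mice. Control thymus gave 13 cortical T cell and 13 cortical epithelial segments from 4 mice, 11 medullary T cell and 11 medullary epithelial segments from 3 mice, and 10 B cell segments from 4 mice. Counts were summed over the segments of a mouse and class, so that the mouse was the replicate. Each of the 4 slides held 2 mice of 1 group, and therefore slide and group cannot be told apart, nor can slide and control genotype. Summed libraries held 3286275 to 17653470 counts in thymoma. They held 413591 to 36879809 counts in control mice 1057, 1059 and 1172, and 63805 to 874379 in control mouse 1143, whose libraries were the shallowest and stood apart on the most abundant listed probe (below).

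The thymus is where T cells mature. Immature thymocytes crowd the cortex among cortical epithelial cells, and those that pass selection move to the medulla, where medullary epithelium and B cells present self antigens. CD3 is the signalling part of the T cell receptor complex, cytokeratins are the filaments of epithelial cells, and B220 is a surface form of CD45 on B cells. A mask follows stained area rather than single cells, and thymocytes lie tightly packed against the processes of epithelial cells. In such segments, fewer cells of a type and less RNA per cell cannot be told apart.

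The deposited files identify probes by number and do not pair them with genes, and the reference used here has no such pairing. T cell, epithelial and B cell marker genes could therefore not be read, the label of the list could not be checked against them, and the probes are called by the rule that chose them. Sequences could not be given for the same reason.

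The rule used control libraries only. Counts of all segments of a control class were pooled and written as L, the log2 of CPM plus 1 (CPM are counts scaled to a common library total of 1000000), for cortical epithelium, medullary epithelium, cortical T cells, medullary T cells and B cells. Of 20175 probes, 4030 had L spread by at least 0.5 over the 5 classes. L differed by less than 0.5 between the 2 zones under each mask in 2060 of these, and in 1257 of those the B cell level was at or below the higher T cell level. In 440 probes L was higher under the T cell mask in both zones, and the 150 with the largest smaller difference form the list. That smaller difference was 0.35 for the first probe, 0.16 for the 75th, 0.1142 for the 150th and 0.1140 for the 151st, the first left out.

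The differences that chose the list were small, and they are given as a description. T cell less epithelial L had a median of 0.18 in cortex (0.11 to 0.48) and of 0.23 in medulla (0.11 to 0.60) over the 150 probes. The standard error from counting alone had a median of 0.088 in cortex and 0.109 in medulla. Both differences exceeded 2 such errors in 66 of the 150 probes. The lowest of the 5 control classes was B cells for 72 probes, cortical epithelium for 53 and medullary epithelium for 25. The highest was medullary T cells for 113 and cortical T cells for 37. Median L of the list was 4.91 in cortical T cells and 4.74 in cortical epithelium. It was 5.14 in medullary T cells, 4.85 in medullary epithelium and 4.69 in B cells, whereas the median of all probes lay between 5.00 and 5.14 in the 5 classes.

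Which probes entered the list depended on the control mice. The same rule applied without mouse 1057 shared 18 of its 150 probes with the list. Without mouse 1059 it shared 80, without mouse 1143 it shared 122, and without mouse 1172 it shared 59. When each mouse had the same weight in place of weighing by counts, 10 of 150 probes were shared.

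No thymoma library entered the rule, so the thymoma counts were not among the values that chose the probes, although the rule itself was written with earlier results of these data known. In thymoma, 56 of the 150 listed probes were higher in T cell segments than in epithelial segments and none was lower, by edgeR's quasi-likelihood test with mouse as a block and Benjamini-Hochberg adjustment below 0.05 over all probes. Of all 20175 probes, 11.7% were called higher and 14.3% lower in the same comparison. At an unadjusted p below 0.05, 68 listed probes were higher and 1 was lower (19.1% and 18.2% of all probes). DESeq2 called 33 higher and 0 lower (3.64% and 8.41% of all probes). limma on mean log2 CPM over segments called 54 higher and 0 lower (11.3% and 13.3% of all probes). Without the mouse block edgeR called 0 of the 150 (0% of all probes higher, 0.0644% lower), with 31 higher and 0 lower at an unadjusted p below 0.05 (3.38% and 8.59% of all probes). The count also rested on control mouse 1057: of the 150 probes that the rule chose without it, edgeR called 18 higher and 1 lower, with a median log2 fold change of 0.07. Of the 150 chosen with each mouse at the same weight, it called 34 higher and 5 lower, with a median of 0.08. Deviations of T cell and epithelial libraries of the same mouse from their class means had correlations between 0.63 and 0.81 across probes.

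The size of the difference in thymoma was again small. The median log2 fold change of T cells over epithelium was 0.12 for the list, a factor of 1.09, against 0.03 for all probes, and its largest value was 0.60, a factor of 1.52. The 56 called probes ran from 0.18 to 0.60 with a median of 0.28. The fold change was above 0 for 120 of 150 listed probes (80%), whereas it was above 0 for 57.3% of all probes. In all 4 mice, 73 listed probes were higher in T cell than in epithelial libraries, and 24.3% of all probes did so. A single listed probe was lower in all 4 mice, against 18% of all probes.

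**Figure D1:**
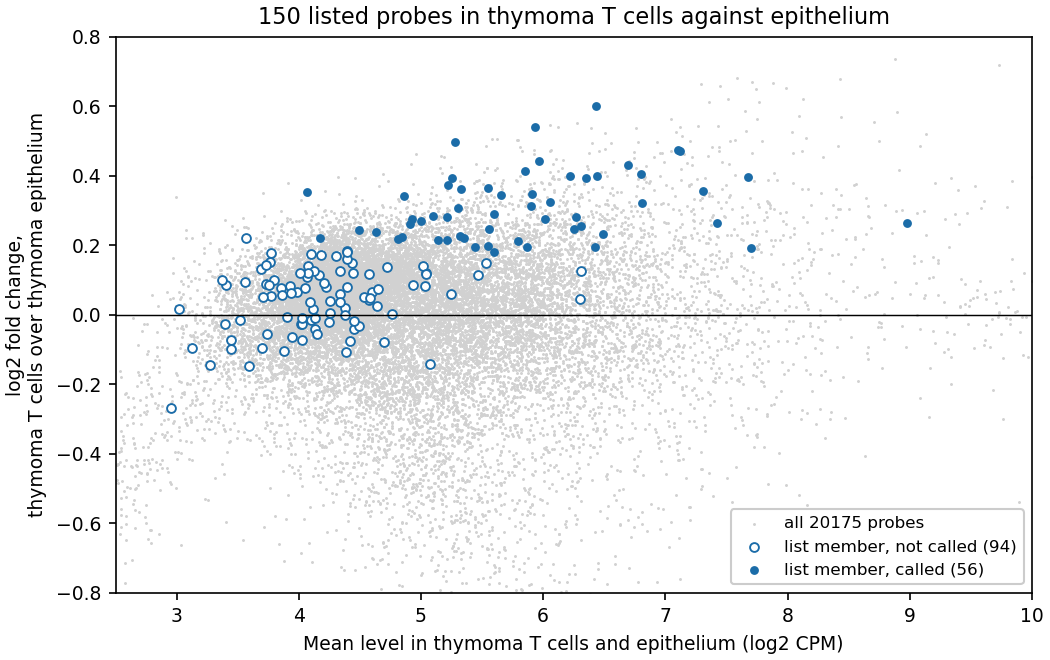
Log2 fold change of thymoma T cells over thymoma epithelium (y axis, edgeR) against mean level (x axis, log2 CPM) for all probes in grey and the 150 listed probes in blue, filled where called at adjusted p below 0.05. The 56 called probes all lie above 0 and mostly at higher levels, and probes outside the y axis limits of -0.8 and 0.8 are not drawn.

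Each thymoma mouse showed the difference. The median over the list of T cell less epithelial log2 CPM was 0.14 in mouse 1042 and 0.17 in mouse 1044, which shared a slide. It was 0.11 in mouse 1082 and 0.18 in mouse 1157, which shared the other slide. The corresponding medians over all probes were 0.04, 0.01, 0.01 and 0.04. The 4 mouse medians of the list averaged 0.149 ± 0.027 (SD, n = 4), and all 4 lay above the median of all probes in the same mouse.

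The same held within single regions, where T cell and epithelial segments were cut from the same field. In 12 of 12 thymoma regions the list median of T cell less epithelial level was above 0 and above the median of all probes. The values ran from 0.11 to 0.26. Mouse 1082 gave the lowest mean over its 3 regions, 0.12, and the other mice gave 0.20 (1042), 0.20 (1044) and 0.19 (1157). The T cell mask took from 33.6 to 70.5% of the area of both masks in these regions. In 13 cortical regions of controls the list median was above 0 in 13 and above that of all probes in 11. In 11 medullary regions it was above 0 in 10 and above that of all probes in 11. These control values were used by the rule and are a description.

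A list chosen without a given control mouse can be read in that mouse. In cortex the median T cell less epithelial difference of such lists was 0.05 in mouse 1057, 0.12 in 1059, 0.17 in 1143 and 0.03 in 1172. With the full list those medians were 0.16, 0.26, 0.27 and 0.14. In medulla the medians of lists chosen without the mouse were 0.04 in 1057, 0.08 in 1143 and 0.11 in 1172, against 0.26, 0.15 and 0.18 with the full list. All 7 values were smaller with the lists chosen without the mouse. They lay above the median of all probes in 6 of 7 cases, the exception being cortex of the shallow mouse 1143, where the median of all probes was 0.20.

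**Figure D2:**
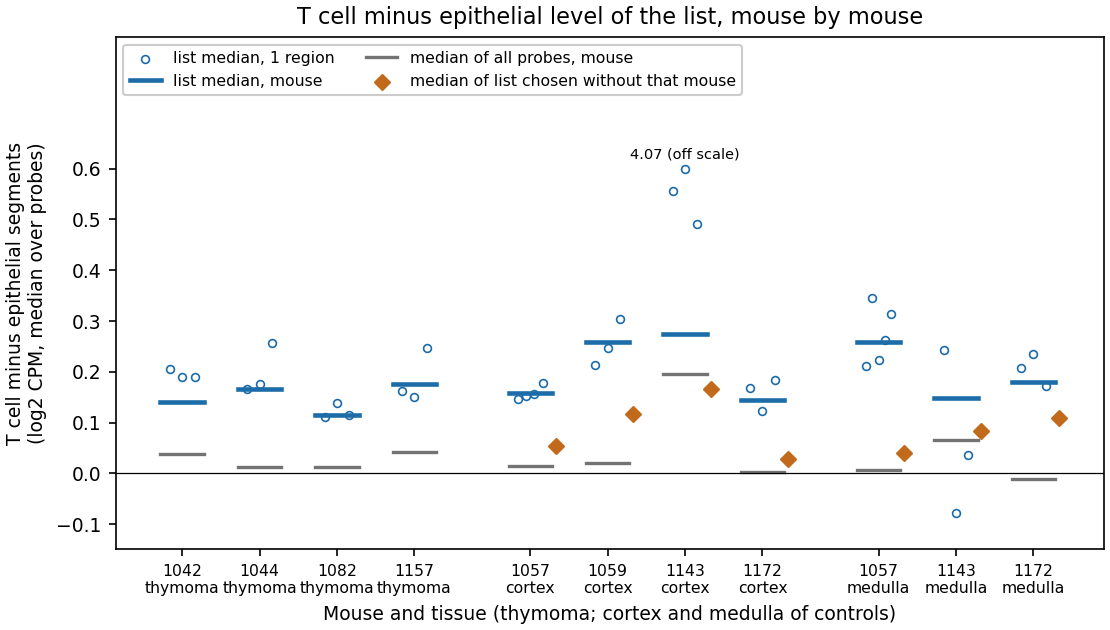
Median over probes of T cell less epithelial log2 CPM (y axis) for 4 thymoma mice, then cortex and medulla of control mice (x axis). Blue lines are the list in each mouse, open circles its regions, grey lines all probes, and orange diamonds lists chosen without that mouse; 1 region of mouse 1143 lies off scale at 4.07, where the median of all probes was 4.07 too. Thymoma lines sit between 0.11 and 0.18, above the grey lines.

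The listed probes that were called lay at higher levels. Among the 50 listed probes with the highest level in thymoma T cells and epithelium, 45 were called higher, with a median log2 fold change of 0.29 and all 50 above 0. Of all 7161 probes in the same range of levels, 19.5% were called higher and 20.9% lower. In the middle 50 listed probes, 10 were called higher with a median of 0.09, against 9.57% of 8470 probes in that range. In the lowest 50, 1 was called higher with a median of 0.05, against 2.11% of 3701 probes. Within the middle range of the list's levels, log2 CPM 4.05 to 5.46, 22 of 74 listed probes were higher. Of 11578 probes in that range 10% were higher and 12.6% lower. Counting error is larger at low levels, and its part in these counts was not tested.

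Rank within the list did not order the thymoma values. Among the first 50 probes by the rule 11 were called higher, among the next 50 there were 25, and among the last 50 there were 20, with median log2 fold changes of 0.09, 0.18 and 0.13. The next 150 probes by the rule, which lie outside the list with smaller differences in control thymus (0.05 to 0.11), had 70 called higher and 1 lower in thymoma, and a median of 0.17. Of all probes, 11.7% were called higher and 14.3% lower. The groups by rank were not matched for level, and the part of level in their order was not tested.

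The thymoma values are also given by the control class with the lowest level. This division was made after the values were seen, was not matched for level and is a description. Of all probes, 11.7% were called higher in thymoma T cells than epithelium. Of 25 probes lowest in control medullary epithelium, 22 were called higher in thymoma T cells than epithelium, with all 25 above 0 and a median log2 fold change of 0.28. Of 72 probes lowest in control B cells, 28 were called, with a median of 0.14. Of 53 probes lowest in control cortical epithelium, 6 were called, with a median of 0.07.

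Of the listed probes called with the same sign in all 4 mice (51 of the 56), those with the largest fold changes were RTS0069321 and RTS0063642. RTS0069321 had 99.7, 96.2, 114 and 141 CPM in T cells of mice 1042, 1044, 1082 and 1157, against 60.7, 55.3, 84.5 and 96.7 CPM in epithelium of the same mice. T cells were higher in each mouse, although the ranges of the 2 classes overlapped across mice. It averaged 113 ± 20.4 CPM in T cells and 74.3 ± 19.6 CPM in epithelium (SD, n = 4 each), a log2 fold change of 0.60 (SE 0.064, edgeR adjusted p = 7.83e-09). In B cells it averaged 40.7 ± 4.67 CPM (SD, n = 4), below every T cell and epithelial library of thymoma. The control means were 126 CPM in cortical T cells, 108 in cortical epithelium, 163 in medullary T cells, 101 in medullary epithelium and 38.5 in B cells.

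RTS0063642 had 73.0, 67.6, 81.4 and 91.6 CPM in T cells of mice 1042, 1044, 1082 and 1157, against 45.1, 39.6, 63.6 and 66.7 CPM in epithelium. The 4 T cell libraries lay above the 4 epithelial ones with no overlap. The log2 fold change was 0.54 (SE 0.065, edgeR adjusted p = 1.75e-07), and B cells again lay lowest at 32.5 ± 5.57 CPM (SD, n = 4). Without the mouse block the fold changes of RTS0069321 and RTS0063642 were 0.59 and 0.53, and edgeR's adjusted p was 0.225 and 0.221.

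No listed probe was called lower, and the pair with the lowest fold changes was RTS0079817 and RTS0078570. RTS0079817 had 8.63, 7.70, 6.26 and 8.21 CPM in T cells and 9.68, 10.7, 7.88 and 9.31 CPM in epithelium of mice 1042, 1044, 1082 and 1157. T cells had the smaller value in each mouse, and the classes overlapped. Its log2 fold change was -0.27 (SE 0.11, edgeR adjusted p = 0.0795), although it stood eighth in the list with a smaller control difference of 0.28. RTS0078570 had 11.7 to 13.9 CPM in T cells and 13.5 to 14.5 CPM in epithelium, a log2 fold change of -0.15 (SE 0.086, edgeR adjusted p = 0.214). Both are among the less abundant listed probes.

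The B cell segments split the list. In thymoma, 39 of the 150 listed probes were lower in B cells than in T cells and 8 were higher, by edgeR's quasi-likelihood test with mouse as a block. Of all probes, 13% were lower and 7.22% higher. The rule had kept only probes whose control B cell level was at or below the higher T cell level, a condition not set on all probes. The list median was -0.01 against 0.03 for all probes, so most of the list did not follow the 39 that were lower. The list chosen without control mouse 1057 had no such tilt, with 6 lower and 5 higher and a median of 0.09. Those 39 had a median log2 fold change of -0.71, and 10 of them were below -1. In B cells 45 listed probes were lower than in T cells in all 4 mice and 28 were higher in all 4, against 17.4% and 21.9% of all probes. The mouse medians of B cells less T cells were 0.03, -0.01, -0.13 and 0.04, averaging -0.017 ± 0.078 (SD, n = 4).

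The difference between B and T cells is given by the control class with the lowest level, again divided after the values were seen and not matched for level. Of the 25 probes lowest in control medullary epithelium, 16 were lower in thymoma B than T cells and 1 was higher, with a median log2 fold change of -0.58. Of the 72 lowest in control B cells, 23 were lower and 0 higher by edgeR, with a median of -0.06. Of the 53 lowest in control cortical epithelium, 0 were lower and 7 higher by edgeR, with a median of 0.07.

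The following probes were chosen after their values were seen, as those called with the lowest and highest log2 fold change in B over T cells. RTS0071423 had 27.2, 30.5, 19.1 and 22.3 CPM in B cells of mice 1042, 1044, 1082 and 1157, against 140, 86.8, 71.3 and 82.8 CPM in T cells, a log2 fold change of -1.94 (SE 0.14, edgeR adjusted p = 8.84e-08). RTS0079338 had 16.2 to 19.4 CPM in B cells and 43.0 to 59.0 CPM in T cells, a log2 fold change of -1.53 (SE 0.10, edgeR adjusted p = 4.08e-08). Neither probe overlapped between the 2 classes.

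RTS0065261 ran the other way, with 117 to 148 CPM in B cells and 55.8 to 84.9 CPM in T cells, a log2 fold change of 0.81 (SE 0.13, edgeR adjusted p = 0.000328). RTS0081536 had 163 to 284 CPM in B cells and 101 to 162 CPM in T cells, a log2 fold change of 0.66 (SE 0.15, edgeR adjusted p = 0.00545). Both were nevertheless higher in T cells than in epithelium in all 4 mice, by log2 fold changes of 0.31 and 0.43. The list thus held probes with the order T cells, epithelium, B cells and probes with the order B cells, T cells, epithelium.

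**Figure D3:**
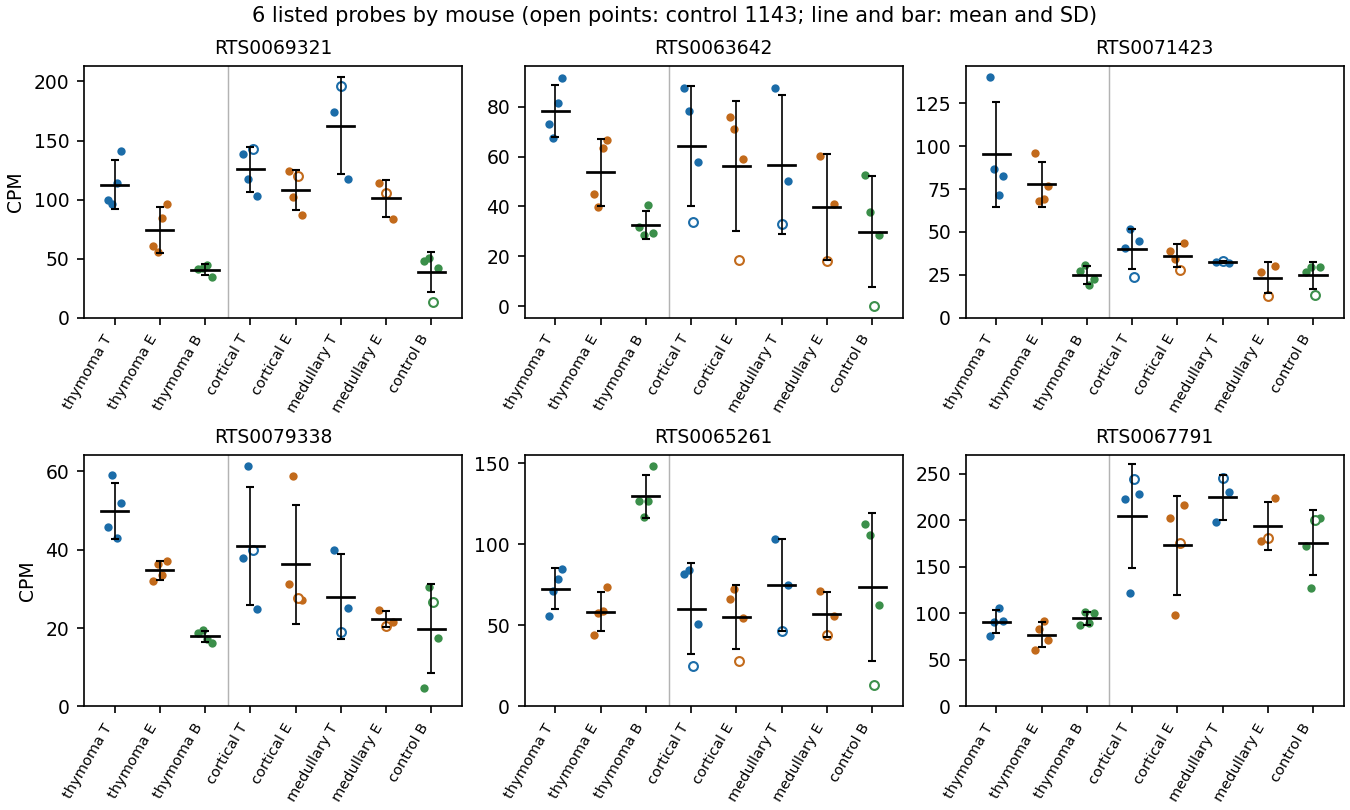
CPM (y axis) of 6 listed probes in 3 thymoma and 5 control classes (x axis), 1 point per mouse, with the mean as a line and the SD as a bar; open points are control mouse 1143. RTS0069321, RTS0063642, RTS0071423 and RTS0079338 are lower in B cells than in the other 2 thymoma classes, and RTS0065261 is higher in B cells than in those 2.

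Against epithelium the B cell segments gave no such tilt. In thymoma, 31 listed probes were lower in B cells than in epithelium and 17 were higher by edgeR, where 18.3% of all probes were lower and 11.6% higher. The list median was 0.05 and that of all probes 0.04. This split rested on scaling: upper-quartile scaling gave 24 lower and 41 higher (13.6% and 26% of all probes) and moved the median of all probes to 0.18, and quantile normalization with limma gave 25 lower and 21 higher (15.2% and 13.3%). It turned as well with the list chosen without control mouse 1057, which gave 5 lower and 28 higher and a median of 0.16. Averaged over thymoma mice, T cells held the highest level of 65 listed probes, B cells of 73 and epithelium of 12, whereas T cells held it for 22.3%, B cells for 52.2% and epithelium for 25.5% of all probes. Epithelium held the lowest level of 76 listed probes, against 44.1% of all.

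**Figure D4:**
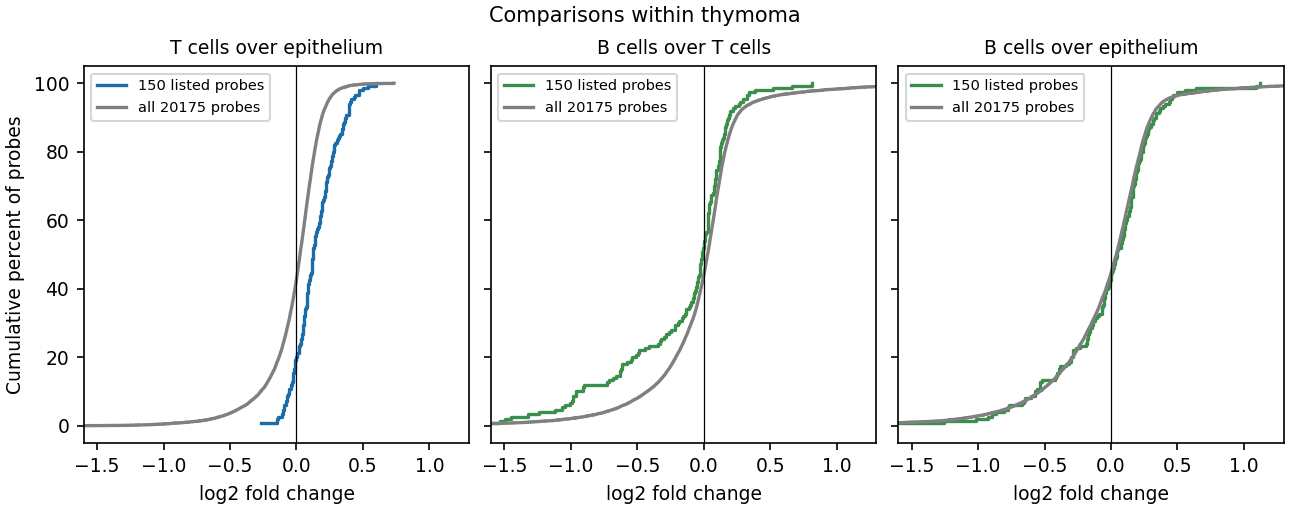
Cumulative percent of probes (y axis) against log2 fold change (x axis, edgeR) for the list in colour and all probes in grey, in 3 comparisons within thymoma; a few probes lie outside the x axis limits. The list is shifted to the right in T cells over epithelium (median 0.12 against 0.03), has a longer left tail in B cells over T cells, and runs close to all probes in B cells over epithelium.

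Thymoma and control were also set side by side. The control libraries of these comparisons chose the list, so the values are a description from which nothing is read. The 2 T cell comparisons share the thymoma T cell libraries and the 2 epithelial ones share the thymoma epithelial libraries. The log2 fold change of thymoma T cells over control cortical T cells had a median of -0.17 over the list and of -0.06 over all probes. Over control medullary T cells it was -0.32 for the list and -0.09 for all probes. Thymoma epithelium over control cortical epithelium gave -0.11 and -0.04, and thymoma epithelium over control medullary epithelium -0.16 and -0.09.

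The count of listed probes called differed between these comparisons. Against control cortical T cells edgeR called 0 of 150, where 0% of all probes were higher and 0.00496% lower. At an unadjusted p below 0.05, 6 were higher and 23 lower (9.67% and 13.1% of all probes), and DESeq2 called 2 higher and 7 lower (3.75% and 1.68%). Without mouse 1143 edgeR called 3 higher and 21 lower, where it called 6.79% of all probes higher and 8.72% lower. Against control medullary T cells 8 were higher and 14 lower (4.25% and 1.42% of all probes). That count ran from 0 to 57 as single mice were left out, with 20 higher and 37 lower without mouse 1143 (10.4% and 5.34% of all probes). Upper-quartile scaling gave 8 higher and 72 lower (4.61% and 17.3% of all probes). In epithelium, 9 were higher and 4 lower than in control medullary epithelium (7.56% and 3% of all probes), and upper-quartile scaling gave 6 higher and 30 lower (5.94% and 19.7% of all probes). The count of 13 ran from 0 without mouse 1172 to 21 without mouse 1143, where 12.3% of all probes were higher and 6.06% lower.

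The 8 listed probes higher in thymoma T cells than in control medullary T cells had log2 fold changes of 0.88 to 1.57 there. In thymoma epithelium over control medullary epithelium the same 8 had 0.67 to 1.58, and 7 of them were called. Against control cortical T cells they had 0.38 to 1.20 and against control cortical epithelium 0.21 to 0.98. The 14 listed probes lower than in control medullary T cells had a median of -0.54 there, -0.40 in epithelium against medullary epithelium, -0.36 against cortical T cells and -0.21 against cortical epithelium.

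Against control cortical epithelium 1 listed probe was higher and 2 were lower in thymoma epithelium (2.6% and 1.14% of all probes), and they are named because they are few, after their values were seen. RTS0071423 was the higher one. It had 96.2, 67.9, 69.5 and 77.0 CPM in thymoma epithelium and 39.1, 34.2, 27.7 and 43.3 CPM in cortical epithelium of control mice 1057, 1059, 1143 and 1172, a log2 fold change of 0.98 (SE 0.18, edgeR adjusted p = 0.00785). RTS0067791 was lower, with 60.7, 83.4, 91.5 and 71.6 CPM in thymoma epithelium and 202, 97.9, 175 and 216 CPM in those controls, a log2 fold change of -1.21 (SE 0.26, edgeR adjusted p = 0.0184). RTS0079283 was lower by a log2 fold change of -0.57 (SE 0.14, edgeR adjusted p = 0.0363). In cortical epithelium of mouse 1143, RTS0071423 and RTS0079283 had only 3 counts each. The groups did not overlap for any of the 3. They were picked as called in this comparison, whose control libraries chose the list, so this too is a description. The count ran from 0 without mouse 1057 or mouse 1172 to 8 without mouse 1143, where 5.92% of all probes were higher and 3.76% lower. It was 7 under upper-quartile scaling, 1 higher and 6 lower (2.2% and 5.14% of all probes).

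**Figure D5:**
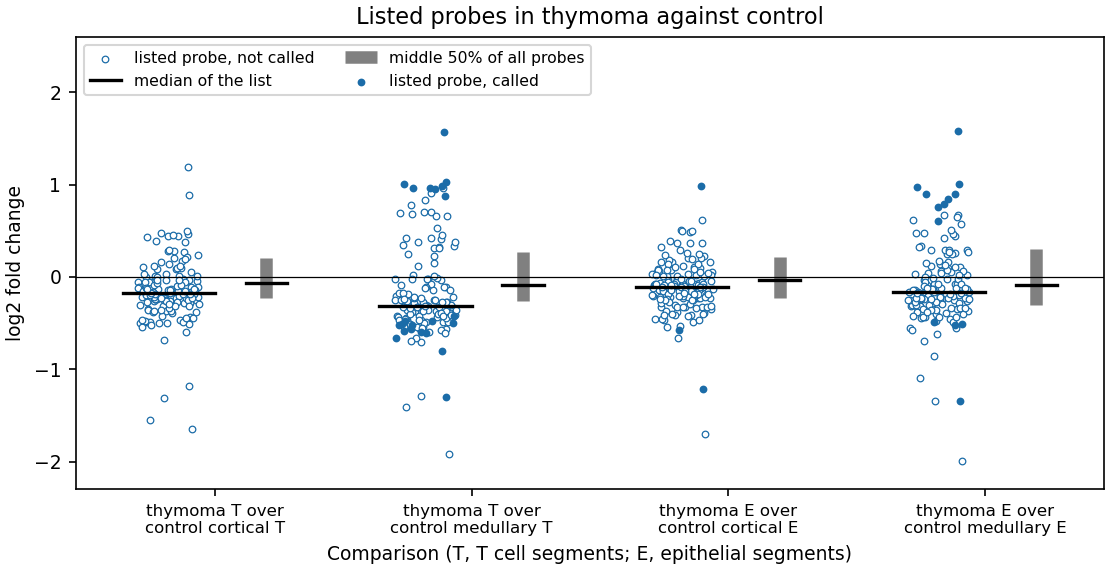
Log2 fold change (y axis, edgeR) of the 150 listed probes in 4 comparisons of thymoma with control (x axis), filled where called; black lines are medians and grey bars the middle 50% of all probes. List medians lie at -0.17, -0.32, -0.11 and -0.16, below the medians of all probes; the control libraries chose the list.

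The most abundant listed probe, RTS0064241, differed more between mice than between classes. It had 229, 874, 827 and 502 CPM in T cells and 196, 781, 696 and 371 CPM in epithelium of thymoma mice 1042, 1044, 1082 and 1157. In cortical T cells of controls it had 347, 613 and 720 CPM in mice 1057, 1059 and 1172 and 5868 CPM in mouse 1143. The T cell value was the higher in each thymoma mouse, with a log2 fold change of 0.26 (SE 0.087, edgeR adjusted p = 0.0237). The 150 listed probes together took 0.657 ± 0.075% of counts in thymoma T cells and 0.549 ± 0.067% in thymoma epithelium (SD, n = 4 each), and 0.598 ± 0.043% in thymoma B cells (SD, n = 4). In cortical T cells of mouse 1143 the share was 1.36%, and 0.817% without RTS0064241, against 0.702, 0.694 and 0.717% without it in mice 1057, 1059 and 1172.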

How the data were processed

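Formalin-fixed thymus and thymoma sections were profiled with the GeoMx mouse whole transcriptome panel (v1.0), per the labels. For every segment the authors deposited a file of whole-number probe counts, written by GeoMx_NGS_Pipeline 2.0.0 in format 0.02, per the file headers. Normalization is absent from the deposited counts. In 19 of 95 files the header left the count column without a usable name, so its unit was recorded as other; the deposited values there are whole numbers as in the 76 others. Probes not listed in a file were set to 0. Sequencing saturation was 67.6 to 90.1%. Genome build and aligner are not given in the sources used here. No 2 files were identical.

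Counts were summed by mouse and class and tested with edgeR 4.0.16 in R 4.3.3 (TMM, filterByExpr, robust quasi-likelihood fit). All 20175 probes passed the filter. Each fit held only the groups compared, with mouse as a block within thymoma, and Benjamini-Hochberg adjustment ran over all probes (threshold 0.05). CPM use TMM-scaled library sizes, with a prior count of 2 on the log2 scale; per-region values used single segments. Both masks of a mouse come from 1 animal, which is where the pairing comes from. Deviations of libraries of the same mouse had correlations from -0.005 to 0.81 over the 3 thymoma comparisons. Alternatives were DESeq2 1.42.0, limma 3.58.1, other scalings, mice left out and other versions of the list; quantile normalization was added after seeing the data. Segments of a mouse share it, and labels do not say whether mice share litters. Within thymoma, p-values therefore set the within-mouse difference against its spread over 4 mice. Against control they set the difference against the spread between mice, 4 in thymoma and 3 or 4 in control. In both, edgeR moderates the spread of each probe toward that of all probes. A p-value thus does not rest on the mouse values of 1 probe alone. The script was tested on simulated data.

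The list and rule were chosen with earlier results of these data known. Probes named from T cells against epithelium are, by rule, the 2 with the largest and the 2 with the most negative fold change among those called with 1 sign in 4 mice, filled up with the lowest where none was called lower. Other named probes were chosen after their values were seen.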

Additional observations from a re-analysis of the deposited data

Results flagged for a closer look

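In 77 groups of mouse values looked at, 8 had a highest value far from the others by Dixon's criterion, which chance gives in about 1 in 20 groups. Of the 8, 7 were values of control mouse 1143, the mouse with the shallowest libraries, and the values are not independent since the list's share includes RTS0064241. RTS0064241 had 3928 CPM in B cells, 5868 CPM in cortical T cells and 5042 CPM in cortical epithelium of that mouse, against 249 to 720 CPM in the same classes of the other controls. The listed probes took 1.36% of counts in its cortical T cells and 1.28% in its cortical epithelium. RTS0079817 had 40.1 CPM in its B cells, which was 3 counts, and RTS0078570 had 26.1 CPM in its cortical T cells. The remaining one was RTS0079338 in cortical epithelium of control mouse 1059, with 58.9 CPM against 27.2 to 31.2 CPM in the other controls.

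RTS0079817 moved one way in thymoma and the other way in control medulla. T cell less epithelial log2 CPM averaged -0.28 in thymoma and was below 0 in all 4 mice, whereas it was above 0 in the 3 control mice with medullary segments. In medulla of mouse 1143 that sign rested on 6 counts in each class. In cortex of the same mouse T cells had the smaller value, 8.71 CPM (7 counts) against 9.23 CPM (1 count). The difference between the groups was not tested, and the control values were used to choose the probe.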

How the results depend on the processing

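Of 16 alternatives for the 56 listed probes called in thymoma T cells against epithelium, 12 gave a count within 1.5 times of it. Among these 12 was the fit without a filter, which could only repeat the main fit, since all probes passed the filter. Also among the 12 was the list with mice weighing alike, although it had 34 higher and 5 lower. DESeq2 gave 33, the first 75 probes of the list 27, and a list chosen without mouse 1057 gave 19 (18 higher, 1 lower). The fit with no replicate block gave 0, where the cause was not tested. Leaving out single mice gave 42 to 54, where 1184 to 1754 of all probes were higher and 2357 to 2864 lower. For B against T cells (47) the list without mouse 1057 gave 11 (5 higher, 6 lower). The list with mice weighing alike gave 31 and the first 75 probes 21. Single mice left out gave 39 to 44, where 1076 to 1600 of all probes were higher and 1818 to 3208 lower. The paired fits were also run without the replicate block. That gave 39 for B against T cells, where 1085 of all probes were higher and 2005 lower. It gave 41 for B cells against epithelium, where 1387 were higher and 3018 lower. The main count for B cells against epithelium was 48. With mice left out that count ran from 36 to 54, where 1351 to 3053 of all probes were higher and 2674 to 4106 lower. It was 19 in the first 75 probes and 33 (28 higher, 5 lower) for the list chosen without mouse 1057. Against control, the counts rested on few mice. For control cortical T cells (0) DESeq2 gave 9 and mice left out 0 to 24. For control medullary T cells (22) mice left out gave 0 to 57 and upper-quartile scaling 80. Controls Gtf2ifl/wt alone gave 11, where 1043 of all probes were higher and 130 lower. Controls Gtf2ifl/fl alone were 1 mouse, with a median log2 fold change of -0.25 for the list and -0.03 for all probes. For control cortical epithelium (3) mice left out gave 0 to 8 and upper-quartile scaling 7. Gtf2ifl/fl alone gave 1 there, where 193 of all probes were higher and 64 lower. Gtf2ifl/wt alone gave 0 by edgeR, where 0 of all probes were higher and 1 lower after adjustment. For control medullary epithelium (13) DESeq2 gave 22, mice left out 0 to 21 and upper-quartile scaling 36. Gtf2ifl/wt alone gave 7, where 1559 of all probes were higher and 482 lower. Gtf2ifl/fl alone, again 1 mouse, gave medians of -0.06 for the list and -0.02 for all probes. Upper-quartile scaling moved the median of all probes to -0.19, -0.31, -0.18 and -0.31 in these 4 comparisons. The mean of the thymoma mouse medians, 0.149, was 0.15 with prior counts of 0.5 and 5 and 0.176 within regions.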
